A study of Homo sapiens with 240 samples.

Results

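Transcript levels of 10 enzymes of fatty acid oxidation were followed through all 240 libraries of a study of energy stress in HEK 293T, a widely used human line of embryonic kidney origin. The genes were CPT1A and CPT2, ACADVL, ACADM and ACAD11, HADHA and HADHB, and ETFA, ETFB and ETFDH. They were taken by symbol from each of 5 deposited tables, by a rule that uses no measured value. The list of genes itself was chosen with earlier results of these data known. They are 10 of 27234 listed genes. The study asked how the energy-sensing kinase AMPK, its target FNIP1, the transcription factors TFEB and TFE3, the nuclear receptor ESRRA and the coactivator PGC1A shape lysosomal and mitochondrial transcripts. The AMPK table holds wild-type (WT) and AMPK knockout (KO) cells treated with solvent (DMSO), with 991, which activates AMPK, with CCCP, an uncoupler, or with Phen or Rot, which the series design names as phenformin and rotenone, both inhibitors of respiratory complex I, for 2, 4, 8 or 16 h. The FNIP1 table holds FNIP1 knockout cells that carry a cDNA of either WT FNIP1 or SA5, in which 5 AMPK phosphosites were changed to alanine, given DMSO or 991 for up to 16 h. The other tables hold WT and TFEB/TFE3 double knockout (DKO) cells, WT and ESRRA KO cells, and cells given control siRNA (siControl) or PGC1A siRNA (siPGC1A), each given DMSO or 991 for 2, 4, 8, 16 or 24 h. Each of the 80 groups has 3 libraries. DMSO was given only at 0 h, so each treated group differs from its control in time as well as in compound. Doses were not in the labels used here. Whether the replicates were separate cultures is not stated, so p-values measure the spread between these libraries only. Whether a knockout line was 1 clone or several is not stated either.

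Mitochondria burn fatty acids in steps that most of the 10 genes cover in turn. Long-chain fatty acids enter as carnitine esters made by carnitine palmitoyltransferase 1 (CPT1A) at the outer membrane and turned back into acyl-CoA by CPT2 at the inner membrane. Acyl-CoA dehydrogenases (ACADVL for very long chains, ACADM for medium chains) start each round of β-oxidation. ACAD11 is a less studied member of the family, and its place in these steps is not taken as given here. The trifunctional protein of HADHA and HADHB carries out the remaining steps for long chains. Electrons from the dehydrogenases pass to electron transfer flavoprotein (subunits ETFA and ETFB) and from it to ubiquinone through ETFDH. AMPK is known to favour the pathway by inhibiting acetyl-CoA carboxylase, whose product malonyl-CoA blocks CPT1. ESRRA and PGC1A are known activators of genes of the pathway in oxidative tissues.

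In these tables HADHA and HADHB stand head to head on chromosome 2, HADHA at 26190635 to 26244726 on the minus strand and HADHB at 26244748 to 26290465 on the plus strand (GRCh38). By RefSeq (GRCh38.p14) their start sites, 26244632 and 26244939, are 307 bases apart, and their promoter windows of 250 bases before to 50 after the start share 194 bases. The HADHB window is printed because it overlaps that of HADHA and the group means of both genes followed each other (r = 0.815 over the 34 groups of the AMPK table), with the bases that also belong to the HADHA window in capitals. The window of CPT2, the member that moved most, is printed with the 50 bases from its RefSeq start site on in capitals.
HADHB, chr2:26244689-26244988, plus strand: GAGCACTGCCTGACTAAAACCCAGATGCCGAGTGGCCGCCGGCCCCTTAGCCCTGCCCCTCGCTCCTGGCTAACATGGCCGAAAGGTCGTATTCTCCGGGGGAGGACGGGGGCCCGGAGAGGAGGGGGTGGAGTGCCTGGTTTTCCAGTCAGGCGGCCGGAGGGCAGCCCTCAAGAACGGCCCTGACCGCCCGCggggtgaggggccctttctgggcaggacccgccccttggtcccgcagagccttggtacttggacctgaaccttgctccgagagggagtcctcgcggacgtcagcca
CPT2, chr1:53196574-53196873, plus strand: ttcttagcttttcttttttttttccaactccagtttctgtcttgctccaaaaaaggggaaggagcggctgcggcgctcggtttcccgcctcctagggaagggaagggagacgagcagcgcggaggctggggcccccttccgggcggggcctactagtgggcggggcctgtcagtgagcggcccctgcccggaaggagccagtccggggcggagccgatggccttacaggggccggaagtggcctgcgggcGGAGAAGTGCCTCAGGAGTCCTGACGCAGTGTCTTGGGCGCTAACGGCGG
RefSeq windows were found for 8 of the 10 genes. None of these 8 windows held, on either strand, the letters TCAAGGTCA of an ESRRA site, the letters AAGGTCA of its core, the letters TGATGNAA of an ATF4 site, the E-box letters CACGTG, the longer letters GTCACGTG of a TFEB/TFE3 site, a PPAR site or an NRF1 site. Among 27326 RefSeq promoter windows of this length, 0.359% held the ESRRA site, 3.96% its core, 3.67% the ATF4 site, 7.44% the E-box, 2.53% the TFEB/TFE3 site, 0.022% the PPAR site and 6.28% the NRF1 site, where the longer ESRRA and TFEB/TFE3 sites contain the shorter ones. For CPT2 the tables use a transcript that starts at 53196429, upstream of the printed window. The listed transcripts of CPT1A, ACADM, ACADVL and ETFB also start outside the windows searched, at 68841931, 75724347, 7219831 and 51366418. Their windows are 68844228 to 68844527, 75724459 to 75724758, 7216875 to 7217174 and 51354793 to 51355092. For these genes and CPT2 the search does not cover the start of the listed transcript.

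The other members lie on chromosomes of their own, apart from ACADM, which shares chromosome 1 with CPT2. In the coordinates of the tables (GRCh38), CPT1A spans 68754883 to 68841931 on chromosome 11 in the AMPK table, CPT2 53196429 to 53214197 on chromosome 1, and ACADM 75724347 to 75763678 on chromosome 1. ACADVL spans 7219831 to 7225267 on chromosome 17, and ACAD11 132558138 to 132660131 on chromosome 3. ETFA spans 76216288 to 76311469 on chromosome 15, ETFB 51345155 to 51366418 on chromosome 19, and ETFDH 158682108 to 158708713 on chromosome 4. Each value belongs to 1 listed transcript of the gene. Whether counting used strand is not given in the sources used here. Several members overlap genes on the opposite strand in GENCODE v29, whose reads then cannot be told apart. CPT2 overlaps the antisense gene AL606760.2, ACADVL overlaps DLG4, and ACAD11 overlaps ACKR4. ETFA overlaps TMEM266, ETFDH overlaps PPID and C4orf46, and HADHA and HADHB overlap each other by 1557 bases. ETFB overlaps AC008750.8 on the same strand. The tables use different transcripts for CPT1A (5232 bases in the AMPK table, 2616 in the others) and ACADVL (2205 bases in the AMPK and ESRRA tables, 2270 in the others), so levels of those genes are compared within a table only.

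Values are TPM, a unit scaled for transcript length and library size, and differences between groups are given in log2(TPM + 1) ± standard error with a Benjamini-Hochberg adjusted p from limma over all genes of the table. A change is called at an adjusted p under 0.05. Listed TPM summed to between 396341 and 449208 per library, and no libraries were identical. Depth is unknown because TPM keep no read counts. The epithelial keratins KRT8 and KRT18 were at 8.67 to 52.97 TPM in all libraries, while 7 of 8 markers of differentiated kidney (all but LRP2, at up to 4.29 TPM) and all markers of endothelium, keratinocytes and liver stayed under 1 TPM. Of the blood markers, PTPRC and CD3E stayed under 1 TPM in every library and HBA1 reached 2.54 TPM. Of 3 fibroblast markers 1 stayed under 1 TPM, and COL1A1 reached 5.64 TPM. The part of these markers in the results was not tested. Of the altered genes, PRKAA1 stood at 2.16, 2.80 and 2.67 TPM in AMPK KO against 6.27, 7.15 and 7.41 in WT cells under DMSO, and PRKAA2, which encodes the other catalytic subunit, at 4.51, 4.10 and 4.46 against 6.37, 5.68 and 6.005. ESRRA stood at 4.44, 4.57 and 5.69 TPM in ESRRA KO against 8.01, 8.24 and 8.27 in WT cells, and TFE3 at 8.44, 7.18 and 7.62 in DKO against 10.3, 9.79 and 9.23 in WT cells. TFEB stood at 1.63, 1.58 and 1.91 TPM in DKO against 1.80, 2.20 and 2.22 in WT cells. These knockouts kept RNA of the altered gene, which does not show whether protein remained. PPARGC1A, which encodes PGC1A, was under 1 TPM even in siControl cells (0.327, 0.265 and 0.340 TPM) and lower with its siRNA (0.0940, 0.0420 and 0.0310). The labels of 6 AMPK WT libraries are at odds: those grouped here as Phen at 2 h and CCCP at 4 h, by their sample codes, treatment tags and time tags, are worded in the title text as 991 at 2 h and CCCP at 16 h. Every result of AMPK WT cells for Phen at 2 h and CCCP at 4 h rests on those codes and tags. In the FNIP1 table the SA5 DMSO replicate 1 and the SA5 991 8 h replicate 1 stood apart from their groups, with FNIP1 at 5.47 and 45.05 TPM against 164 to 195 in the other 13 SA5 libraries, so results of that table are given with and without both libraries.

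All 10 genes were expressed under DMSO in the control arm of every table. ETFA was highest, with group means of 126 to 167 TPM over the 5 control arms, followed by HADHA at 77.5 to 86.8 TPM, ETFB at 60.2 to 70.6 TPM and HADHB at 46.7 to 58.7 TPM. ACADM followed at 34.8 to 48.4 TPM. ACADVL stood at 26.3 TPM in the AMPK and 39.1 TPM in the ESRRA table, and with its other transcript at 33.4 to 38.6 TPM in the remaining 3. Its mean lay below that of ACADM in every table but FNIP1, with overlapping libraries in the ESRRA and PGC1A tables. CPT2 stood at 16.2 to 23.7 TPM, ETFDH at 12.9 to 23.6 TPM and ACAD11 at 10.6 to 19.2 TPM, ranges that overlap. CPT1A had the lowest mean of the 10 within each table, at 6.63 TPM in the AMPK table and, with the shorter transcript, 4.81 to 9.37 TPM in the other 4. A lower level in bulk RNA can come from fewer cells that express a gene or from less RNA in each cell, which cannot be told apart.

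After 16 h in AMPK WT cells no compound moved all 10 transcripts in 1 direction. With the biguanide Phen 8 of the 10 fell, CPT2 and ACADVL most, while CPT1A, the entry enzyme, rose. With 991, CCCP and Rot some members rose and others fell. With 991, 4 members rose and 2 fell, where 41.9% of all 13617 genes tested rose and 26.9% fell. With CCCP, 4 rose and 3 fell (44.1% and 26.6% of all genes). With Phen, 1 rose and 8 fell (45.3% and 34.9% of all genes). The median member then stood at -0.32 where the median gene stood at 0.07. With Rot, 3 rose and 5 fell (36.2% and 29.2% of all genes). Scaling libraries by median ratios gave 2 rises and 5 falls of members for 991 (33.8% and 35.2% of all genes), 4 and 4 for CCCP (34.6% and 35%), 1 and 8 for Phen (37.3% and 43.1%), and 2 and 6 for Rot (29.7% and 35.8%). It moved the median gene under Phen by -0.12.

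**Figure D1:**
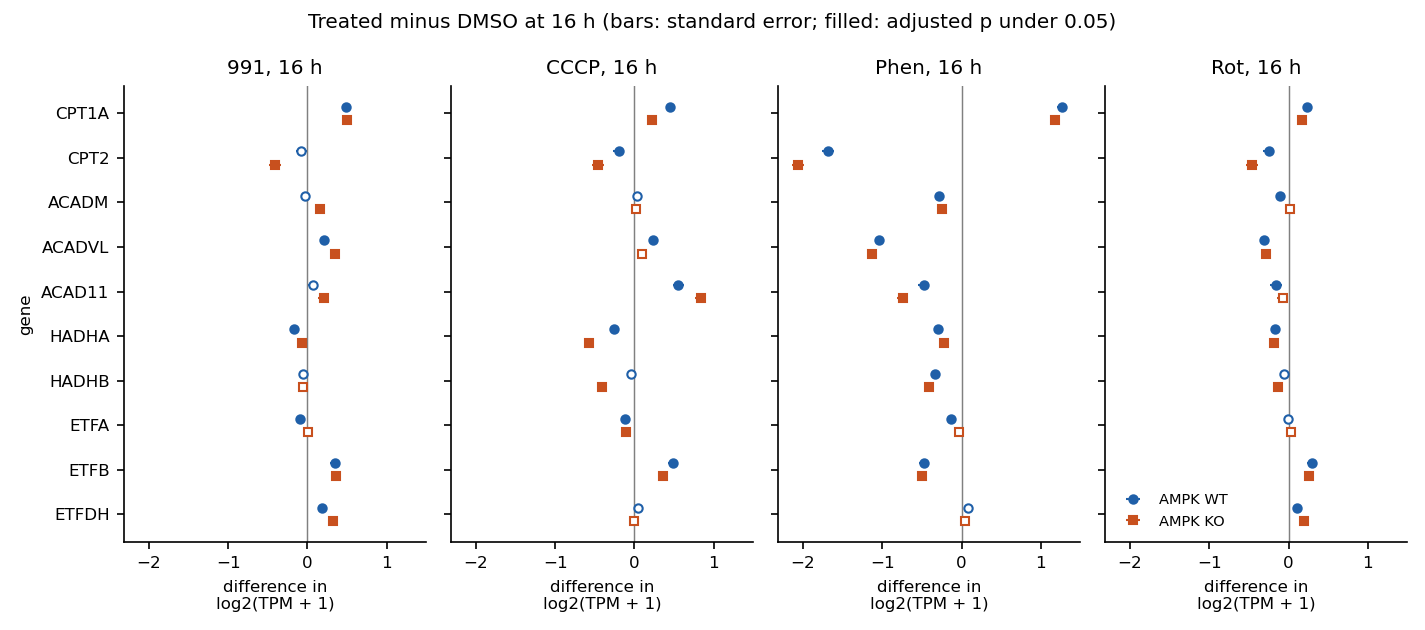
Difference in log2(TPM + 1) from DMSO after 16 h of each compound, for the 10 genes (vertical axis) in AMPK WT (circles) and AMPK KO cells (squares), with bars of 1 standard error from 3 libraries a group and filled symbols where the adjusted p is under 0.05. Phen places CPT2 at -1.68 in WT and -2.06 in KO cells and CPT1A at 1.26 and 1.17, while the other compounds keep every gene between -0.58 and 0.83.

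CPT1A and CPT2, which act in sequence on the same acyl groups, had moved in opposite directions by 16 h of Phen. CPT2 stood at 18.1, 19.04 and 19.4 TPM in the WT DMSO libraries. With Phen it stood at 11.9, 11.4 and 11.7 TPM after 2 h, 8.91, 6.98 and 7.63 after 4 h, 8.48, 7.20 and 6.11 after 8 h and 5.08, 5.54 and 4.94 after 16 h. Every Phen library was below every DMSO library from 2 h on. The fall was -0.65 ± 0.07, adjusted p = 4.89e-11 at 2 h and reached -1.68 ± 0.07, adjusted p = 2.24e-33 at 16 h. CPT1A, at 6.44, 6.82 and 6.63 TPM under DMSO, first dipped to 5.40, 5.95 and 5.74 TPM after 4 h of Phen and then stood at 17.1, 17.3 and 17.5 TPM after 16 h. The groups did not overlap at either time, with differences of -0.19 ± 0.06, adjusted p = 0.00299 and 1.26 ± 0.06, adjusted p = 3.51e-32.

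With the uncoupler CCCP, CPT2 fell early and was back near its DMSO level by 8 h. WT libraries with CCCP stood at 11.6, 12.02 and 12.8 TPM after 2 h and 11.7, 10.9 and 12.2 after 4 h, all below the DMSO libraries (-0.60 ± 0.07, adjusted p = 1.94e-10, and -0.65 ± 0.07, adjusted p = 4.35e-12). After 8 h they stood at 19.5, 18.6 and 18.3 TPM, which overlapped DMSO. After 16 h the difference was -0.20 ± 0.07, a call lost without replicate 2 or replicate 3 of every group (-0.20, adjusted p = 0.0553; -0.20, adjusted p = 0.0877). With Rot, CPT2 fell at 3 of 4 times: -0.29 ± 0.07, adjusted p = 0.000728 at 2 h, -0.18 ± 0.07 at 4 h and -0.25 ± 0.07 at 16 h. The 4 h call was lost without replicate 2 (-0.14, adjusted p = 0.224) or 3 of every group (-0.15, adjusted p = 0.243), and the 16 h call without replicate 3 (-0.22, adjusted p = 0.0688). With 991 it went the other way, with CPT2 at 25.8, 22.97 and 23.01 TPM after 4 h (0.33 ± 0.07, adjusted p = 0.000143) and back at 17.4, 17.995 and 17.99 TPM after 16 h. CPT1A rose by 16 h with every compound: 0.49 with 991, 0.45 with CCCP and 0.24 with Rot, so that all 4 groups lay above all WT DMSO libraries. With CCCP this rise followed a fall to 5.29, 5.85 and 5.76 TPM at 8 h (-0.20 ± 0.06, adjusted p = 0.00148).

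**Figure D2:**
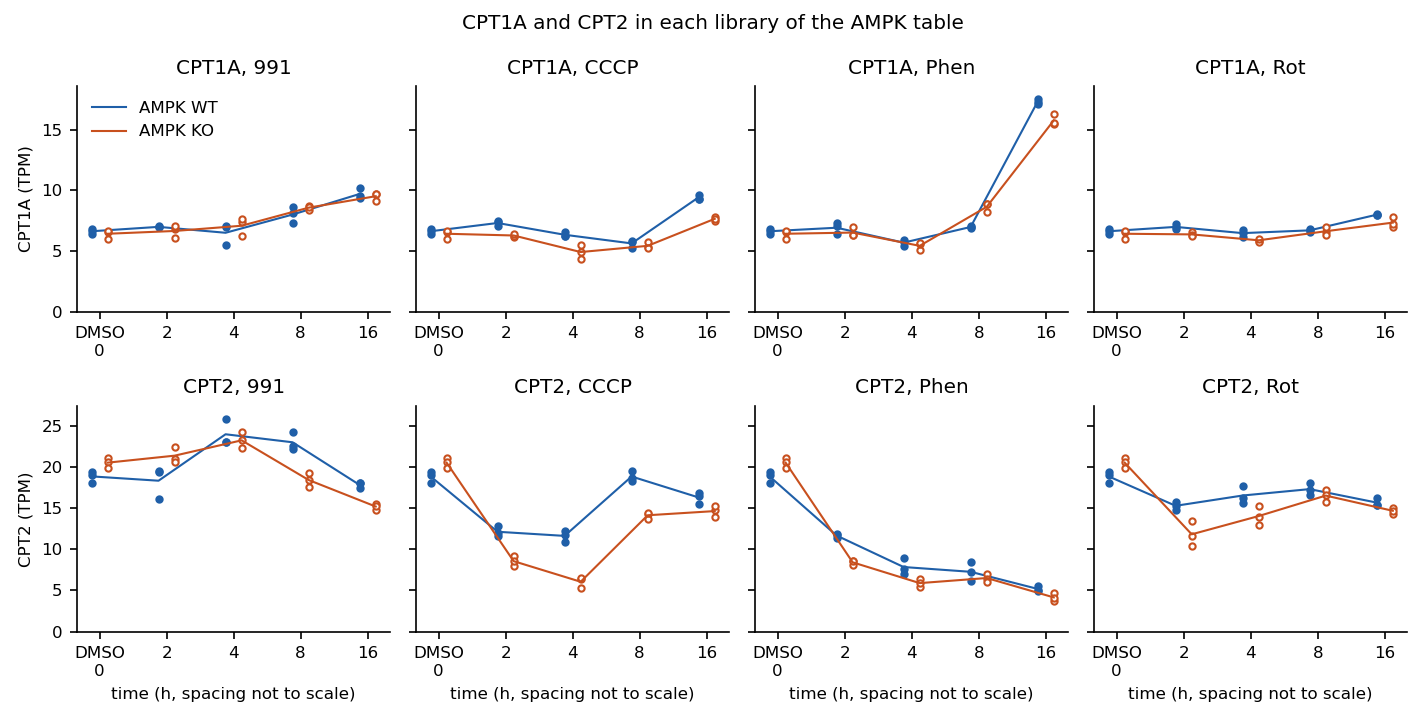
TPM of CPT1A (top) and CPT2 (bottom) in each library of AMPK WT (filled blue) and AMPK KO cells (open orange) under DMSO at 0 h and each compound at 2, 4, 8 and 16 h, with lines through the means of 3 libraries and time points evenly spaced. CPT2 falls within 2 h under CCCP, Phen and Rot, to its lowest library of 3.75 TPM in KO cells with Phen at 16 h, and CPT1A reaches 17.1 to 17.5 TPM in WT cells with Phen at 16 h.

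Among the acyl-CoA dehydrogenases ACADVL fell with CPT2 under Phen and was higher than DMSO at 16 h of CCCP and 991. Its WT DMSO libraries stood at 27.2, 25.4 and 26.4 TPM and its Phen 16 h libraries at 12.9, 11.8 and 12.2 TPM. All Phen libraries lay below all DMSO libraries (-1.04 ± 0.06, adjusted p = 1.14e-27), and the fall was already -0.31 ± 0.06 at 2 h. With Rot for 16 h it stood at 21.7, 21.4 and 20.4 TPM (-0.30 ± 0.06, adjusted p = 3.51e-06). With CCCP and 991 for 16 h it was higher than DMSO by 0.24 ± 0.06 and 0.21 ± 0.06, the latter a call lost under median-ratio scaling (0.11, adjusted p = 0.0704). ACAD11 stood at 14.4, 13.04 and 14.1 TPM under DMSO, 21.5, 20.8 and 20.1 after 16 h of CCCP and 10.2, 9.90 and 8.97 after 16 h of Phen. It rose with CCCP (0.55 ± 0.07, adjusted p = 1.85e-10) and fell with Phen (-0.48 ± 0.07, adjusted p = 7.39e-09), with no overlap between the 3 groups. ACADM moved less, falling with Phen at every time, most at 8 h (35.5, 32.6 and 33.01 TPM against 50.5, 46.3 and 48.4 under DMSO, -0.51 ± 0.04, adjusted p = 4.09e-18). With CCCP, ACADM fell at 2, 4 and 8 h (-0.17, -0.20 and -0.22). At 16 h its difference was 0.03 ± 0.04, which did not pass the test.

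The trifunctional protein subunits moved by small steps with tight replicates, which do not settle how far such steps depend on scaling. HADHA stood at 88.8, 83.3 and 84.8 TPM under DMSO and at 68.8, 69.7 and 69.5 TPM after 16 h of Phen. It fell at 16 h with all 4 compounds: its difference from DMSO was -0.16 with 991, -0.26 with CCCP, -0.30 with Phen and -0.17 with Rot. HADHB fell with Phen at 16 h (43.6, 42.97 and 43.6 TPM against 57.04, 52.8 and 55.5, -0.34 ± 0.03, adjusted p = 3.68e-15) and did not pass the test at 16 h with 991, CCCP or Rot, where each difference was -0.05. Of the electron carriers, ETFB rose at 16 h with 991 (0.35), CCCP (0.49) and Rot (0.30) and fell with Phen (41.3, 45.4 and 42.6 TPM against 57.3, 62.5 and 60.7, -0.47 ± 0.06, adjusted p = 3.95e-10). Its partner subunit ETFA, the most abundant member, had differences of -0.09 with 991, -0.11 with CCCP and -0.13 with Phen at 16 h. Under quantile normalization these falls turned to 0.0042, 0.018 and 0.077, none of which passed the test. Under median-ratio scaling they were larger and called (-0.19, adjusted p = 1.11e-05; -0.23, adjusted p = 3.2e-07; -0.28, adjusted p = 1.07e-09). ETFDH dipped at 4 h with CCCP (-0.25 ± 0.05, adjusted p = 1.44e-05) and Phen (-0.25 ± 0.05, adjusted p = 1.17e-05). It had differences of 0.04 ± 0.05 and 0.08 ± 0.05 at 16 h, which did not pass the test.

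Phen and Rot both inhibit complex I, and the doses used are not in the labels, so the comparison is of the treatments as given. At 16 h, 8 members were lower and 1 was higher with Phen than with Rot, where 29.3% of all genes were lower and 40.1% higher. The largest gaps were CPT2 (-1.43 ± 0.07, adjusted p = 7.2e-29), CPT1A (1.02 ± 0.06, adjusted p = 1.35e-26), ETFB (-0.77 ± 0.06, adjusted p = 5.65e-18) and ACADVL (-0.73 ± 0.06, adjusted p = 2.22e-19). CPT2 was lower with Phen than with Rot at all 4 times, from -0.36 at 2 h, a call lost without replicate 3 of every group (-0.36, adjusted p = 0.0592), to -1.43 at 16 h. ETFB is the 1 member called in opposite directions for these compounds, with 70.6, 76.4 and 75.3 TPM after 16 h of Rot. The smaller gaps of HADHA (-0.13 ± 0.03) and ETFA (-0.12 ± 0.04) were lost under quantile normalization, where ETFA turned to 0.03, adjusted p = 0.494. The difference for ETFDH was -0.03 ± 0.05 and did not pass the test.

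Under DMSO 1 member, ACADM, differed clearly between AMPK KO and WT cells. In all, 3 members were higher and 1 was lower, where 16.2% of all genes were higher and 22.7% lower (23.2% and 18.1% under quantile normalization, with the same counts of members). ACADM, the medium-chain dehydrogenase, stood at 36.4, 32.6 and 34.9 TPM in KO and 50.5, 46.3 and 48.4 in WT cells, with no overlap (-0.47 ± 0.04, adjusted p = 8.8e-16). The rises of HADHA (0.11 ± 0.03), HADHB (0.10 ± 0.03) and ETFB (0.18 ± 0.06) were small. All 3 were lost without replicate 2 of every group (0.10, adjusted p = 0.0645; 0.07, adjusted p = 0.247; 0.16, adjusted p = 0.118), and also when only the groups compared were fitted.

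The response of CPT2 is where AMPK KO cells departed from WT cells most often. Its difference in response, KO minus WT, was negative at every time under CCCP, Phen and Rot, and it passed the test at 4 of 4 times under CCCP, 3 of 4 under Phen and 1 of 4 under Rot. The KO libraries with CCCP for 4 h stood at 6.38, 5.31 and 6.48 TPM, about as low as KO cells with Phen (6.37, 5.38 and 5.92), while WT cells with CCCP stood at 11.7, 10.9 and 12.2. Under DMSO the KO libraries stood at 21.05, 20.5 and 19.9 TPM. The extra fall in KO cells was -0.96 ± 0.10, adjusted p = 1.7e-11 at 4 h and -0.51 ± 0.10, adjusted p = 0.000157 at 8 h, and these calls held under every alternative in the AMPK table. The value at 4 h uses the WT libraries whose labels are at odds, and the value at 8 h does not. At 2 h it was -0.58 ± 0.10, adjusted p = 9.21e-05, lost without replicate 3 of every group (-0.58, adjusted p = 0.0527). At 16 h it was -0.26 ± 0.10, adjusted p = 0.048, lost without replicate 1, 2 or 3 of every group (-0.21, adjusted p = 0.074; -0.26, adjusted p = 0.179; -0.31, adjusted p = 0.175). Under Phen the extra fall was -0.54 ± 0.10 at 2 h, -0.47 ± 0.10 at 4 h and -0.38 ± 0.10 at 16 h, and under Rot -0.47 ± 0.10 at 2 h. The 16 h call for Phen was also lost under quantile normalization (-0.20, adjusted p = 0.181). The 2 h value for Phen likewise uses WT libraries whose labels are at odds. These 4 calls were lost without replicate 2 of every group (-0.55, adjusted p = 0.107; -0.50, adjusted p = 0.0915; -0.42, adjusted p = 0.0634; -0.41, adjusted p = 0.4) and without replicate 3 (-0.59, adjusted p = 0.213; -0.53, adjusted p = 0.158; -0.44, adjusted p = 0.0982; -0.50, adjusted p = 0.354). With 991, CPT2 rose at 8 h in WT (24.2, 22.5 and 22.2 TPM) and stood at 19.2, 18.4 and 17.6 in KO cells, a difference in response of -0.42 ± 0.10, adjusted p = 0.00191, which was lost without replicate 3 (-0.46, adjusted p = 0.0593).

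Under CCCP the trifunctional protein genes fell further in KO than in WT cells. HADHA stood at 61.2, 60.4 and 62.9 TPM after 16 h of CCCP in KO cells and 72.01, 72.4 and 69.6 in WT cells, against 94.01, 90.8 and 92.2 and 88.8, 83.3 and 84.8 under DMSO. HADHB stood at 43.8, 44.3 and 44.5 TPM in KO and 52.3, 53.1 and 54.2 in WT cells, against 59.2, 59.2 and 58.98 and 57.04, 52.8 and 55.5 under DMSO. For both genes the KO libraries lay above the WT libraries under DMSO and below them after 16 h of CCCP, with no overlap at either time. The differences in response were -0.32 ± 0.04, adjusted p = 1.09e-09 for HADHA and -0.36 ± 0.05, adjusted p = 4.53e-09 for HADHB, and both calls held under every alternative in the AMPK table. ETFDH, which hands electrons to ubiquinone, fell to 12.5, 12.04 and 11.5 TPM at 8 h in KO cells and stood at 15.01, 14.5 and 15.02 in WT cells (-0.38 ± 0.07, adjusted p = 3.05e-05). It was back at 16.6, 17.6 and 17.98 TPM in KO cells at 16 h. At 8 h, 4 members responded lower and 0 higher in KO cells, where 13.8% of all genes responded lower and 7.62% higher (11.8% and 10.2% under quantile normalization). At 16 h, 4 members responded lower and 1 higher (17.7% and 10.5% of all genes). The higher one was ACAD11 (23.3, 23.5 and 27.04 TPM in KO cells, 0.28 ± 0.10, adjusted p = 0.0276), a call lost without replicate 2 or 3 (0.34, adjusted p = 0.0857; 0.23, adjusted p = 0.231). Quantile normalization gave 2 members lower and 1 higher at 16 h (15.5% and 12.9% of all genes).

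**Figure D3:**
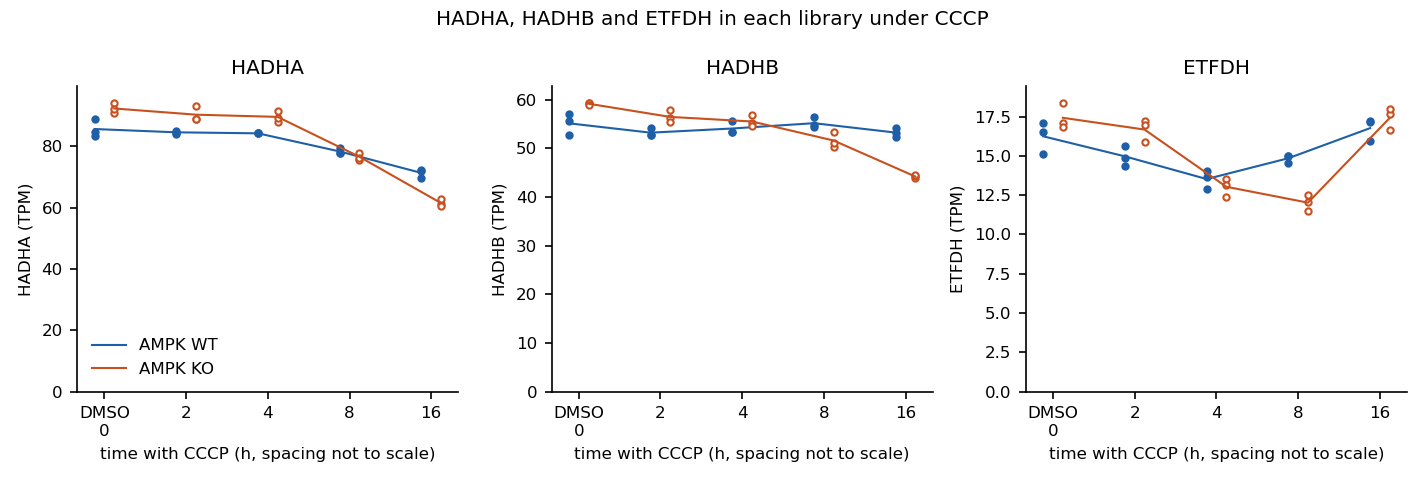
TPM of HADHA, HADHB and ETFDH in each library of AMPK WT (filled blue) and AMPK KO cells (open orange) under DMSO at 0 h and CCCP at 2, 4, 8 and 16 h, with lines through the means of 3 libraries and time points evenly spaced. The KO libraries end below the WT libraries at 16 h for HADHA and HADHB, and at 8 h for ETFDH.

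Outside CCCP few members differed in response between AMPK KO and WT cells by the test, which does not show that their responses were equal. For the 991 response at 16 h, 1 member differed in each direction between KO and WT cells (4.96% of all genes higher, 10% lower): ACADM by 0.20 ± 0.06, adjusted p = 0.0143 and CPT2 by -0.33 ± 0.10, adjusted p = 0.0191, both lost without replicate 2 (0.17, adjusted p = 0.223; -0.35, adjusted p = 0.137) or replicate 3 of every group (0.22, adjusted p = 0.106; -0.37, adjusted p = 0.158). Median-ratio scaling gave 2 members higher and 1 lower (6.3% and 7.76% of all genes). For the Phen response at 16 h, 1 member, CPT2, responded lower and 0 higher (10.5% and 3.38% of all genes). Median-ratio scaling then gave 1 lower and 2 higher (6.98% and 5.52%). For the Rot response at 16 h limma called 0 of 10 members, with 1 at an unadjusted p under 0.05, where 1.97% of all genes differed in either direction. With Phen for 16 h, CPT1A stood at 16.2, 15.4 and 15.6 TPM in KO cells (1.17 ± 0.06, adjusted p = 3.1e-30), with a difference in response at 16 h of -0.09 ± 0.08 that did not pass the test. The fall of ACADVL under Phen in KO cells was -1.13 ± 0.06, adjusted p = 1.42e-29, with a difference in response of -0.09 ± 0.08, which did not pass either.

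The activator 991 was given to the control arm of all 5 tables, which share no libraries. CPT2 rose after 4 h in all 5 control arms, by 0.33 in AMPK WT, 0.54 in FNIP1 WT, 0.58 in TFEB/TFE3 WT, 0.50 in ESRRA WT and 0.43 in siControl cells. In ESRRA WT cells, for example, it stood at 34.01, 33.6 and 34.3 TPM after 4 h of 991 against 23.1, 22.7 and 25.4 under DMSO, with no overlap. At 24 h the difference was 0.09 ± 0.05 in TFEB/TFE3 WT and -0.05 ± 0.05 in siControl cells, neither of which passed the test. CPT2 fell at 24 h in ESRRA WT cells (-0.34 ± 0.05, adjusted p = 3.21e-06). ACADVL rose by 16 h in all 5 control arms, by 0.21, 0.27, 0.52, 0.53 and 0.47 in the same order. It was up at 24 h too in the 3 tables that reach it (0.49, 0.56 and 0.72). At 16 h the rise was lost under median-ratio scaling in AMPK WT (0.11, adjusted p = 0.0704) and FNIP1 WT cells (0.22, adjusted p = 0.19). In FNIP1 WT cells, whose table holds libraries that stand apart, the 16 h rise of ACADVL and the 4 h rise of CPT2 were also lost without replicate 2 (0.35, adjusted p = 0.148; 0.53, adjusted p = 0.324) or 3 of every group (0.26, adjusted p = 0.207; 0.54, adjusted p = 0.327). Both were called without the 2 libraries that stand apart (0.27, adjusted p = 0.000786; 0.54, adjusted p = 1.42e-10). ACAD11 rose at 16 h in TFEB/TFE3 WT (0.40), ESRRA WT (0.51) and siControl cells (18.4, 16.2 and 18.3 TPM against 11.1, 11.2 and 9.54, 0.68 ± 0.07, adjusted p = 2.3e-09), while its differences of 0.07 ± 0.07 in AMPK WT and 0.20 ± 0.21 in FNIP1 WT cells did not pass. Without the libraries that stand apart, that of ACAD11 in FNIP1 WT cells was called (0.20, adjusted p = 0.00538).

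Counted at 16 h of 991, 6 members rose and 2 fell in TFEB/TFE3 WT cells, where 41.1% of all genes rose and 17.9% fell. In ESRRA WT cells 3 rose and 2 fell (31.2% and 15% of all genes). In siControl cells 3 rose and 1 fell (44.6% and 12.4% of all genes). In FNIP1 WT cells 1 rose and 0 fell (11.6% and 4.87% of all genes), and without the 2 libraries that stand apart 5 rose and 2 fell (34.2% and 19.5% of all genes). The median gene itself stood at 0.13 in TFEB/TFE3 WT and 0.17 in siControl cells, and median-ratio scaling moved the latter by -0.13. With that scaling the counts were 5 rises and 4 falls in TFEB/TFE3 WT (30.6% and 26.9% of all genes), 2 and 4 in ESRRA WT (22.1% and 22%), 2 and 6 in siControl (25.9% and 22.9%) and 0 and 1 in FNIP1 WT cells (10.8% and 7.94%). Quantile normalization gave 5 and 2 (26.7% and 25.5%), 3 and 3 (21.1% and 20%), 2 and 1 (21.3% and 19.9%), and 1 and 0 (11.4% and 10.8%) in the same order. The members that fell were HADHB in TFEB/TFE3 WT (-0.15 ± 0.05) and ESRRA WT (-0.17 ± 0.04), HADHA in siControl (-0.09 ± 0.03), and ETFA in TFEB/TFE3 WT (-0.16 ± 0.04) and ESRRA WT cells (-0.20 ± 0.03). The falls of HADHB in TFEB/TFE3 WT and of HADHA in siControl cells were lost without replicate 1 of every group (-0.14, adjusted p = 0.0606; -0.05, adjusted p = 0.385). ETFA was lower at 24 h too, with differences of -0.27, -0.25 and -0.22 in TFEB/TFE3 WT, ESRRA WT and siControl cells.

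Several rises with 991 were called in AMPK KO cells as well as in WT cells. ETFB stood at 90.2, 87.1 and 85.8 TPM after 16 h of 991 in KO cells, against 63.8, 72.3 and 68.5 under DMSO (0.36 ± 0.06, adjusted p = 1.44e-06), and its WT rise was 0.35 ± 0.06. CPT1A stood at 9.10, 9.72 and 9.73 TPM after 16 h of 991 in KO cells, against 6.03, 6.58 and 6.67 under DMSO (0.50 ± 0.06, adjusted p = 1.36e-11). Neither pair of groups overlapped. The differences in response, KO minus WT, were 0.01 ± 0.09 for ETFB and 0.01 ± 0.08 for CPT1A and did not pass the test. In KO cells ACADVL rose by 0.35 and ETFDH by 0.32 at 16 h, and CPT2, which did not pass the test at 4 h (0.17 ± 0.07), fell at 16 h (-0.41 ± 0.07, adjusted p = 1.73e-06). These KO calls at 16 h held under every alternative. The medium-chain enzyme ACADM was flat in the control arms, with differences from DMSO between -0.09 and 0.05 at all times in the AMPK, TFEB/TFE3, ESRRA and PGC1A tables, none of which passed the test.

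**Figure D4:**
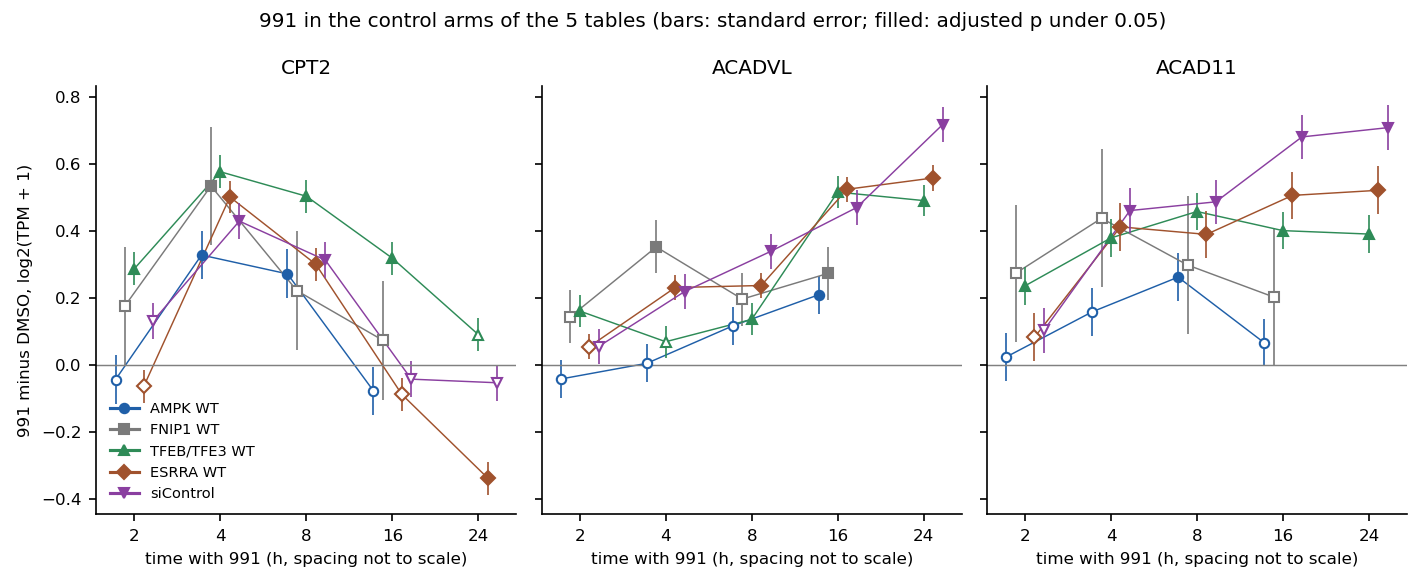
Difference in log2(TPM + 1) between 991 and DMSO for CPT2, ACADVL and ACAD11 at each time in the control arms of the 5 tables, with bars of 1 standard error from 3 libraries a group, filled symbols where the adjusted p is under 0.05 and time points evenly spaced. CPT2 is up at 4 h in every arm and ends at -0.34 in ESRRA WT cells at 24 h, while ACADVL and ACAD11 reach 0.72 and 0.71 in siControl cells at 24 h.

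Loss of TFEB and TFE3 was accompanied by lower levels of 5 members under DMSO and a higher level of 0, where 13.7% of all genes were lower and 37.6% higher and the median gene stood at 0.11. ACAD11 differed most, at 12.5, 10.7 and 11.2 TPM in DKO and 19.6, 18.3 and 19.5 in WT cells, with no overlap (-0.69 ± 0.06, adjusted p = 3.26e-11). ACADM stood at 33.9, 36.1 and 34.3 TPM in DKO and 44.3, 44.2 and 40.6 in WT cells (-0.30 ± 0.04, adjusted p = 6.5e-07). HADHA (-0.28 ± 0.04, adjusted p = 1.36e-07), HADHB (-0.16 ± 0.05, adjusted p = 0.0042) and ETFA (-0.20 ± 0.04, adjusted p = 4.21e-05) were also lower, and these 5 calls held under every alternative. Median-ratio scaling, which moved the median gene by -0.10, gave 8 members lower and 0 higher (24% and 24.3% of all genes), and quantile normalization gave 7 and 0 (21.4% and 23.7%). Rises with 991 were called in DKO cells too: ACADVL rose by 0.68 and ACAD11 by 0.67 at 16 h, and CPT2 by 0.41 at 4 h. In the difference of responses at 16 h, 1 member responded higher and 1 lower in DKO cells (5.74% and 6.91% of all genes), and 1 and 0 under quantile normalization (5.85% and 6.32%). These were ACAD11 (0.26 ± 0.08, adjusted p = 0.0264) and ETFDH, which stood at 18.04, 17.4 and 15.7 TPM with 991 in WT and 15.1, 12.5 and 15.4 in DKO cells (-0.32 ± 0.10, adjusted p = 0.0399). Each call was lost without replicate 1, 2 or 3 of every group, with adjusted p of 0.0911, 0.0862 and 0.232 for ACAD11 and 0.359, 0.151 and 0.0594 for ETFDH.

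ESRRA KO cells had lower levels of 6 members and a higher level of 1 under DMSO, where 14.7% of all genes were lower and 6.71% higher. Median-ratio scaling gave 4 lower and 1 higher (9.89% and 9.57% of all genes), and quantile normalization 4 and 1 (9.38% and 9.14%). The differences were small: ETFDH stood at 20.3, 19.4 and 18.1 TPM in KO and 24.9, 22.2 and 23.6 in WT cells (-0.28 ± 0.07, adjusted p = 0.00299). ACADM (-0.23 ± 0.06, adjusted p = 0.00783), HADHB (-0.20 ± 0.04, adjusted p = 0.000656) and ETFA (-0.14 ± 0.03, adjusted p = 0.00104) were lower, and CPT2 (-0.16 ± 0.05) and HADHA (-0.10 ± 0.03) more weakly so. CPT1A was higher, at 5.78, 5.75 and 6.06 TPM in KO and 4.65, 5.16 and 4.62 in WT cells, with no overlap (0.24 ± 0.08, adjusted p = 0.0328). Of these 7 calls, 2, those of HADHB and ETFA, passed under every alternative. Without replicate 1 of every group ETFDH was lost (-0.28, adjusted p = 0.0514), without replicate 3 ACADM was lost (-0.19, adjusted p = 0.192), and CPT1A, CPT2 and HADHA were lost without replicate 1 (0.23, adjusted p = 0.181; -0.17, adjusted p = 0.173; -0.13, adjusted p = 0.0957) or replicate 2. The rises of ACADVL and ACAD11 with 991 were called in KO cells too (0.39 and 0.26 at 16 h, the latter lost without replicate 1 of every group, 0.19, adjusted p = 0.156), as was the 4 h rise of CPT2 (0.44). For the difference of 991 responses at 16 h limma called 0 of 10 members, with 3 at an unadjusted p under 0.05, where 2.84% of all genes differed in either direction.

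PGC1A siRNA went with a lower CPT1A and CPT2 and a higher ACADVL under DMSO, so that 2 members were lower and 1 higher, where 9.89% of all genes were lower and 14.3% higher. Median-ratio scaling gave 3 lower and 1 higher (12.4% and 11.9% of all genes). CPT1A stood at 4.03, 3.77 and 4.74 TPM with siPGC1A and 6.75, 7.44 and 7.29 with siControl (-0.66 ± 0.09, adjusted p = 1.6e-06). CPT2 stood at 15.99, 14.8 and 16.2 and 19.7, 18.1 and 20.1 TPM (-0.29 ± 0.05, adjusted p = 0.000178). Neither gene's groups overlapped, and both calls held under every alternative. The rise of ACADVL (0.25 ± 0.05, adjusted p = 0.000876) was lost without replicate 1 of every group (0.18, adjusted p = 0.0726). The labels name 1 siRNA condition for PGC1A, and an effect of the siRNA on other genes was not tested. After 16 h of 991 CPT1A stood at 5.71, 5.73 and 6.37 TPM with siPGC1A against 8.53, 8.73 and 8.04 TPM with siControl, with no overlap. For the difference of 991 responses at 16 h limma called 0 of 10 members, with 1 at an unadjusted p under 0.05, where 0.201% of all genes differed in either direction.

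**Figure D5:**
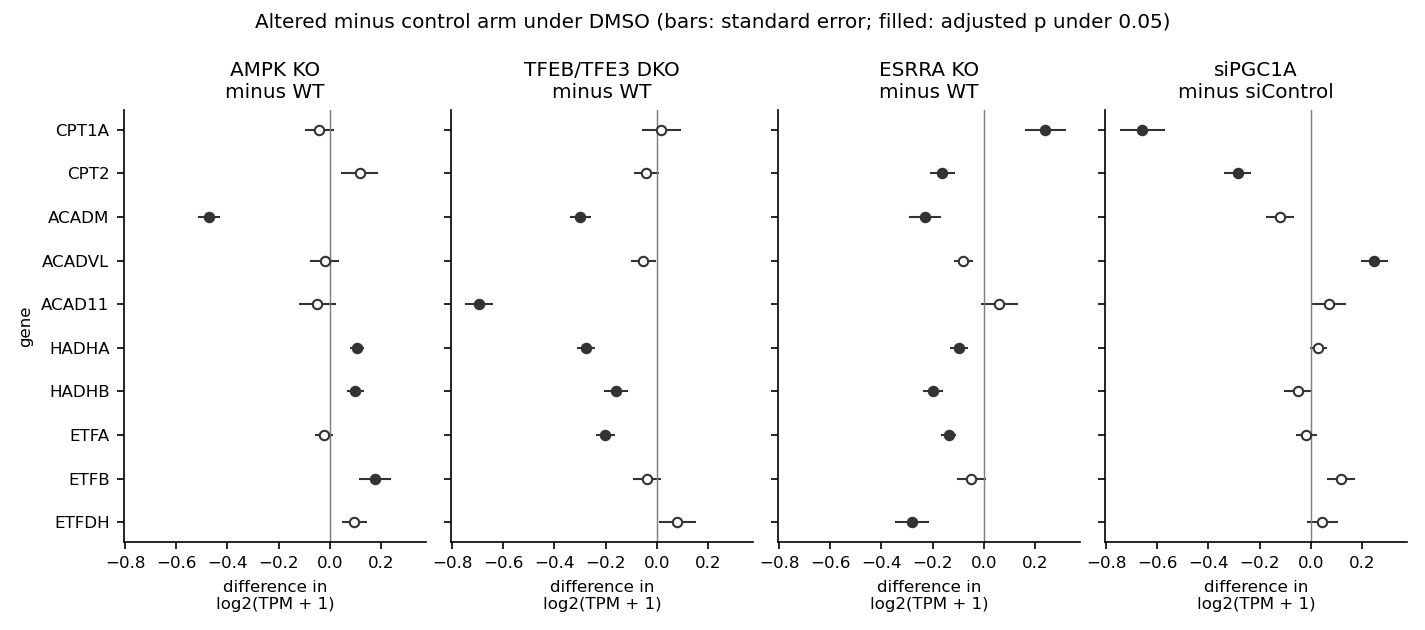
Difference in log2(TPM + 1) between the altered and the control arm under DMSO for the 10 genes (vertical axis) in 4 tables, with bars of 1 standard error from 3 libraries a group and filled symbols where the adjusted p is under 0.05. ACADM is at -0.47 in AMPK KO cells, ACAD11 at -0.69 in TFEB/TFE3 DKO cells and CPT1A at -0.66 with siPGC1A.

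In the FNIP1 table most SA5 results moved with the DMSO library that stood apart. In that library CPT1A was at 0.649, ACADM at 6.10 and ETFB at 178 TPM, while the other SA5 DMSO libraries stood at 6.12 and 5.70 TPM for CPT1A, 39.6 and 40.2 for ACADM and 68.8 and 72.02 for ETFB. With all libraries 1 member, ACADVL (-0.41 ± 0.08, adjusted p = 0.00347), was lower and 0 were higher in SA5 than in WT FNIP1 cells under DMSO, where 8.64% of all genes were lower and 1.69% higher and the median gene stood at -0.30. That call was lost under median-ratio scaling (-0.12, adjusted p = 0.396), which moved the median gene by 0.22 and gave 0 members in either direction (3.53% of all genes lower, 2.76% higher), as did quantile normalization (3.1% and 3.58%). Without the SA5 DMSO replicate 1 and the SA5 991 8 h replicate 1, ACADVL was lower (-0.34, adjusted p = 0.00232), and ACADM (0.19, adjusted p = 0.024) and ACAD11 (0.21, adjusted p = 0.0305) were higher. Rises with 991 in SA5 cells shrank without both libraries, that of ACADM at 16 h from 1.02 to 0.18, adjusted p = 0.0124, as did that of CPT1A at 16 h, from 0.84 to 0.16, adjusted p = 0.18, no longer a call. The 4 h rise of CPT2 went from 0.81 to 0.42, adjusted p = 5.65e-08, that of ACAD11 from 0.85 to 0.43, adjusted p = 1.34e-05, and the 16 h rise of ACADVL from 0.45 to 0.37, adjusted p = 0.000126. These 3 were called with and without both libraries, but the rise of ACADVL was lost under median-ratio scaling (0.12, adjusted p = 0.365). Of the 17 calls made in SA5 cells with all libraries, 0 held under every alternative. In WT FNIP1 cells, which share the error estimate, 3 of 40 gene-by-time differences from DMSO were called with all libraries and 22 without both. At 16 h the share of all genes called there went from 11.6% higher and 4.87% lower to 34.2% and 19.5%. For the difference of 991 responses between SA5 and WT FNIP1 cells at 16 h limma called 0 of 10 members, with 0 at an unadjusted p under 0.05, where 0.0150% of all genes differed in either direction. Without both libraries 0 of 40 gene-by-time differences in response were called.

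The members did not all vary together across the 34 groups of the AMPK table. As a description of group means that share DMSO libraries and culture conditions, Pearson's r of log2(TPM + 1) was 0.83 for ACADVL with ACAD11, 0.82 for CPT2 with ACADVL and 0.815 for HADHA with HADHB, the pair with the shared promoter region printed above. It was -0.652 for CPT1A with HADHB and -0.634 for CPT1A with ETFA. CPT2 had the widest range of group means, 2.28 on the log2 scale. The genes whose group means were most like those of CPT2 were SLC26A2 (r = 0.955), LOC257396 (0.955), C12orf60 (0.949), CHTF8 (0.945) and IQCD (0.941), over 34 groups.

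Around the 10 enzymes, other genes of fatty acid metabolism were counted after 16 h in AMPK WT cells. Apart from the count of regulators, the counts are read against the shares of all genes. Of all genes, 45.3% rose and 34.9% fell with Phen and 41.9% and 26.9% with 991. With median-ratio scaling these were 37.3% and 43.1% with Phen and 33.8% and 35.2% with 991. Of 13 other enzymes of mitochondrial β-oxidation, 2 rose and 5 fell with Phen, led by ACADS (-1.06), the short-chain dehydrogenase, and ACADSB (-0.94). With 991, 7 rose and 3 fell, among them ACADL (0.67) and DECR1 (0.45), which reduces double bonds. With Phen median-ratio scaling gave 0 rises and 10 falls. Of 9 tested regulators of the pathway, 9 rose and 0 fell with Phen (8 and 0 under median-ratio scaling), among them RXRA (1.33), the partner of the PPAR receptors, and PPARGC1A (1.15). With 991, 7 regulators rose and 1 fell. A gene was tested with at least 1 TPM in at least 3 libraries. A gene low under DMSO can therefore enter such a count through treated libraries where it is high. How far this shaped the counts was not tested, so the rises of regulators are given as values and not as more than the share of all genes. PPARGC1A was under 1 TPM under DMSO in siControl cells. Of 9 peroxisomal genes, 6 rose and 0 fell with 991 (3 and 1 under median-ratio scaling), among them EHHADH (0.62). Of the same 9, 4 rose and 2 fell with Phen, which median-ratio scaling turned into 2 rises and 5 falls. Of 12 tested genes of fatty acid activation and the carnitine shuttle, 7 rose and 3 fell with 991 and 6 rose and 2 fell with Phen, led by the carnitine transporter SLC22A5 (1.07). Median-ratio scaling gave 3 rises and 4 falls with Phen. The 991 counts of the 13 enzymes, the regulators and the activation and shuttle genes are given without that scaling. How far they depend on scaling is not shown here. Of the malonyl-CoA genes, ACACB, the mitochondrial acetyl-CoA carboxylase, rose (0.38 with 991 and 0.65 with Phen) and MLYCD, which breaks malonyl-CoA down, fell (-0.39 and -0.63).

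The same 13 other enzymes of mitochondrial β-oxidation were counted in the altered arms under DMSO. In TFEB/TFE3 DKO cells 9 were lower and 0 higher (13.7% and 37.6% of all genes), and 10 and 0 under either scaling. The lower ones include DECR1 (-0.74), ACADS (-0.49) and HADH (-0.41), the short-chain hydroxyacyl-CoA dehydrogenase. In ESRRA KO cells 4 were lower and 0 higher (14.7% and 6.71% of all genes), among them ACADL (-0.37) and ECHS1 (-0.22). Either scaling gave 4 lower and 3 higher. In AMPK KO cells 3 were lower and 3 higher (22.7% and 16.2% of all genes), with DECR1 (-0.90) and ACADL (-0.56) lower and ACADS (0.19) and ECHS1 (0.21) higher. Under CCCP at 16 h, 6 of the 13 responded lower and 1 higher in AMPK KO than in WT cells (17.7% and 10.5% of all genes). Those lower include DECR1 (-0.49) and HADH (-0.25). Quantile normalization gave 5 lower and 1 higher (15.5% and 12.9% of all genes).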

How the data were processed

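RNA was measured by sequencing in 240 HEK 293T libraries. The deposited values are TPM per gene in 5 tables, made by the authors with FastQC, STAR and HOMER on GRCh38, per the submitters' processing notes, which give no versions. Library preparation details that bear on strand and the read depth are not given in the sources used here, so how precisely low values were measured is unknown. From the deposited TPM, log2(TPM + 1) was computed for genes with at least 1 TPM in at least 3 libraries of a table, and 118 contrasts were fitted with limma 3.58.1 in R 4.3.3, with all groups of a table sharing 1 estimate of the spread and p-values adjusted by Benjamini-Hochberg over all genes of that table. Groups came from the sample codes in the titles and the treatment and time tags, also for the 6 AMPK WT libraries whose title text differs from them. The alternatives were scaling by median ratios or quantiles, adding 0.1 in place of 1, fitting without a filter, with a replicate block or with only the groups compared, and leaving out each replicate. The fit without both FNIP1 SA5 libraries that stood apart was added after the data were seen. The fitting was tested on simulated data. The 10 members, the gene lists and the cell markers were chosen with earlier results of these data known. All 10 members are described, and genes of the other lists were named where they passed in a comparison of arms or had the largest differences of their list at 16 h in AMPK WT cells. Some other genes of the pathway, some overlapping genes and some markers are not reported here.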

Additional observations from a re-analysis of the deposited data

Results flagged for a closer look

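In the following cases the size of a response differed between the altered and the control arm by limma's test of the difference itself, with p-values adjusted by Benjamini-Hochberg over all genes of the table. Each value is the response of the altered arm minus that of the control arm in log2(TPM + 1). For CPT2, the CCCP response of AMPK KO against WT cells differed by -0.58 ± 0.10 at 2 h (adjusted p = 9.21e-05), -0.96 ± 0.10 at 4 h (adjusted p = 1.7e-11), -0.51 ± 0.10 at 8 h (adjusted p = 0.000157) and -0.26 ± 0.10 at 16 h (adjusted p = 0.048). For CPT1A, the CCCP response of AMPK KO against WT cells differed by -0.27 ± 0.08 at 4 h (adjusted p = 0.00736) and -0.23 ± 0.08 at 16 h (adjusted p = 0.0266). For HADHA, the CCCP response of AMPK KO against WT cells differed by -0.14 ± 0.04 at 8 h (adjusted p = 0.00606) and -0.32 ± 0.04 at 16 h (adjusted p = 1.09e-09). For HADHB, the CCCP response of AMPK KO against WT cells differed by -0.20 ± 0.05 at 8 h (adjusted p = 0.00125) and -0.36 ± 0.05 at 16 h (adjusted p = 4.53e-09). For ETFDH, the CCCP response of AMPK KO against WT cells differed by -0.38 ± 0.07 at 8 h (adjusted p = 3.05e-05). For ACAD11, the CCCP response of AMPK KO against WT cells differed by 0.28 ± 0.10 at 16 h (adjusted p = 0.0276). For CPT2, the Phen response of AMPK KO against WT cells differed by -0.54 ± 0.10 at 2 h (adjusted p = 0.00119), -0.47 ± 0.10 at 4 h (adjusted p = 0.0048) and -0.38 ± 0.10 at 16 h (adjusted p = 0.00711). For CPT1A, the Phen response of AMPK KO against WT cells differed by 0.31 ± 0.08 at 8 h (adjusted p = 0.0146). For CPT2, the Rot response of AMPK KO against WT cells differed by -0.47 ± 0.10 at 2 h (adjusted p = 0.00658). For CPT2, the 991 response of AMPK KO against WT cells differed by -0.42 ± 0.10 at 8 h (adjusted p = 0.00191) and -0.33 ± 0.10 at 16 h (adjusted p = 0.0191). For ETFA, the 991 response of AMPK KO against WT cells differed by 0.16 ± 0.05 at 8 h (adjusted p = 0.0139). For ACADM, the 991 response of AMPK KO against WT cells differed by 0.20 ± 0.06 at 16 h (adjusted p = 0.0143). Between TFEB/TFE3 DKO and WT cells the 991 response differed for ACADVL by 0.35 ± 0.07 at 8 h (adjusted p = 0.00112), ACAD11 by 0.26 ± 0.08 at 16 h (adjusted p = 0.0264), ETFDH by -0.32 ± 0.10 at 16 h (adjusted p = 0.0399) and ETFA by 0.21 ± 0.05 at 24 h (adjusted p = 0.00592). Between ESRRA KO and WT cells the 991 response of CPT1A differed by -0.45 ± 0.11 at 4 h (adjusted p = 0.0236). Of these 26 differences, 5 held under every alternative: those in the CCCP response of CPT2 at 4 and 8 h, ETFDH at 8 h, and HADHA and HADHB at 16 h. The other 21 were lost under at least 1 alternative, and no explanation was tested for any of them. The values for Phen at 2 h and CCCP at 4 h use AMPK WT libraries whose title text differs from their codes and tags.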

How the results depend on the processing

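Each alternative changed 1 choice at a time, and the values here are numbers of gene-by-time calls over the 10 members. The shares of all genes called moved with the settings too, so a changed count is not a result about the members. With median-ratio scaling 352 of the 397 calls stayed called in the same direction, with quantile normalization 330, with a pseudocount of 0.1 393, without a filter 374, and with only the groups compared 312. Without replicate 1, 2 or 3 of every group the numbers were 321, 296 and 289. Under quantile normalization 5 calls reversed, none of which passed there: ETFA at 16 h with 991 (0.0042), CCCP (0.018) and Phen (0.077) in AMPK WT cells and for Phen against Rot (0.029), and CPT1A with 991 at 16 h in siControl cells (-0.0027). The mean correlation of deviations between libraries of the same replicate number was 0.0861 in the AMPK table and between 0.00503 and 0.0203 in the others. This mean hides a partial pairing in the AMPK table, where 34.6% of same-number pairs were over 0.1 and the highest stood at 0.693. Libraries of other numbers had a mean of -0.0419 there. The highest same-number pair in the FNIP1 table stood at 0.873. With the replicate block 396 of the 397 calls stayed, and the calls for the difference in Rot response between AMPK KO and WT cells went from 1 to 2. Fits to only the groups compared gave 11 calls in place of 17 for 991 in AMPK KO cells, 2 in place of 4 for the difference in 991 response and in Phen response between AMPK KO and WT cells, 0 in place of 1 for Rot, and 1 in place of 4 under DMSO. They also gave 2 in place of 4 for the TFEB/TFE3 difference in 991 response, 0 in place of 1 for the ESRRA difference, as quantile normalization did, and 4 in place of 7 for ESRRA KO under DMSO. Of all genes, 3.36% were then higher and 7.21% lower in ESRRA KO cells under DMSO, in place of 6.71% and 14.7%. In AMPK KO cells under DMSO it was 8.07% and 14% in place of 16.2% and 22.7%. Median-ratio scaling gave 8 in place of 5 for TFEB/TFE3 DKO under DMSO and 27 in place of 16 for 991 in siControl cells. With it 24.3% of all genes were higher and 24% lower in DKO cells, in place of 37.6% and 13.7%. At 16 h of 991 in siControl cells 25.9% were higher and 22.9% lower, in place of 44.6% and 12.4%. In the FNIP1 table the 3 calls for 991 in WT cells became 5 with median-ratio scaling, 6 with quantile normalization, 21 with only the groups compared, 11 without the SA5 DMSO replicate 1 and 22 without both libraries that stood apart. At 16 h the shares of all genes there went from 11.6% higher and 4.87% lower to 32.1% and 19% with only the groups compared. Without both libraries they were 34.2% and 19.5%. The 17 calls for 991 in SA5 cells became 11 with quantile normalization, 10 without a filter, 0 with only the groups compared and 10 without the SA5 DMSO replicate 1. The 1 call between SA5 and WT FNIP1 cells under DMSO became 0 with either scaling and with only the groups compared, and 3 without both libraries. Leaving out 1 replicate number gave 9 to 16 calls for 991 in AMPK KO cells, 9 to 15 for Rot in AMPK WT cells, 9 to 15 in place of 17 for CCCP against Rot and 14 to 20 in place of 26 for 991 in ESRRA KO cells. For AMPK KO against WT cells it gave 1 to 4 under DMSO, 0 to 6 for the difference in 991 response, 6 to 12 for CCCP, 0 to 5 for Phen and 0 to 2 for Rot. It gave 0 to 2 for the TFEB/TFE3 difference, 0 to 0 for the ESRRA difference, 3 to 4 for ESRRA KO under DMSO, 0 to 19 for 991 in WT FNIP1 cells, 5 to 15 in SA5 cells and 0 to 1 for SA5 under DMSO. TPM hold no read counts, so what depth limits could not be tested. Some small differences rest on scaling, such as the 16 h falls of ETFA in AMPK WT cells and the gap of HADHA between Phen and Rot. Others held under both scalings: the difference of HADHA in CCCP response at 16 h and the lower HADHA and ETFA in DKO cells under DMSO.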
